A study of Homo sapiens with 8 samples.

Results

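The comparison set cells labelled HepG2 that had been heat shocked directly against cells of the same line that had been given interferon gamma (IFNg). It used 4 of the 8 libraries of the series, 1 m6A immunoprecipitation (IP) and 1 input library for each treatment, and all 25918 gene models of the deposited table. The heat shock cells were held at 43 °C for 30 min. The IFNg cells were cultured overnight with IFNg at 200 ng/ml. HepG2 is a human line derived from a liver carcinoma, and no untreated HepG2 library was among those used here, so every difference below is heat shock relative to IFNg and a gene's direction against a resting cell cannot be told from it. A recovery of 4 h after the stress is recorded for the series, but the wording ties it plainly only to another treatment, so the time between heat shock and harvest was not given in the sources used here.

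N6-methyladenosine (m6A) is a methylated adenosine inside messenger RNA, placed by the METTL3 and METTL14 writer complex, removed by the demethylases FTO and ALKBH5 and bound by YTH domain proteins. In m6A sequencing, fragmented RNA is pulled down with an antibody against m6A, and a peak is a stretch where the IP exceeds the input. Heat activates the factor HSF1, which drives genes for chaperones, the proteins that refold damaged proteins. IFNg binds a receptor that signals through the kinases JAK1 and JAK2 to factors of the STAT family, which together with factors of the IRF family drive genes for antigen presentation and antiviral defence.

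The table gives, for each gene model and treatment, the authors' quantile rank of expression and their m6A peaks with position on the transcript, segment and score. Ranks are shown here as percentiles, with 100 as the highest. A percentile is a place in the order of genes and not a fold change: near the top it hardly moves even for a large change in level. There was 1 value per treatment, so no difference has a replicate check, no test could be made, and treatment cannot be told apart from library. The lowest percentile was shared by 8487 gene models at 32.7 after heat shock and by 4781 gene models at 18.4 after IFNg. Percentiles are printed as deposited, and for differences values under the higher of these floors were raised to it. Read depth is unknown, because the table holds no counts.

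The label of the cells was compared with 15 markers of hepatocyte lines. Only KRT8, KRT18 and TTR reached the 60th percentile in either treatment. Albumin (ALB) stood at the 57.6th percentile after heat shock and the 22.3rd after IFNg, while AFP, AHSG, FGA, FGB and TF were all at the floor after heat shock and between 18.4 and 28.8 after IFNg. APOA1 had percentiles of 32.7 after heat shock and 34.9 after IFNg, and the liver factor HNF4A had 41.5 after heat shock and 56.9 after IFNg. Of 51 genes for secreted liver proteins, 6 reached the 60th percentile in either treatment. Among 12 fibroblast and endothelial markers 5 did so, led by LUM at 95.5 after heat shock and 81.1 after IFNg. Most defining liver genes were therefore under the 60th percentile in both treatments of a table labelled HepG2, several of them at the floor, and the cells are called by their label throughout.

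A difference was called at 10 percentile points or more, among the 11877 gene models that reached the 60th percentile in at least 1 treatment. Of these, 2755 (23.2%) ranked higher after heat shock, 2684 (22.6%) ranked lower and 6438 lay within 10 points. With the best ranked model of each gene, 2707 of 11694 genes (23.1%) ranked higher and 2632 (22.5%) lower. The median difference was 0.88 points over the models past the filter, with quartiles of -8.67 and 9.26. Spearman's rho between the treatments was 0.62 across the 11877 models and 0.82 across all 25918, with genes as points that share their libraries. The plot of the percentiles shows where the chaperone genes and the interferon genes lie within this cloud.

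**Figure D1:**
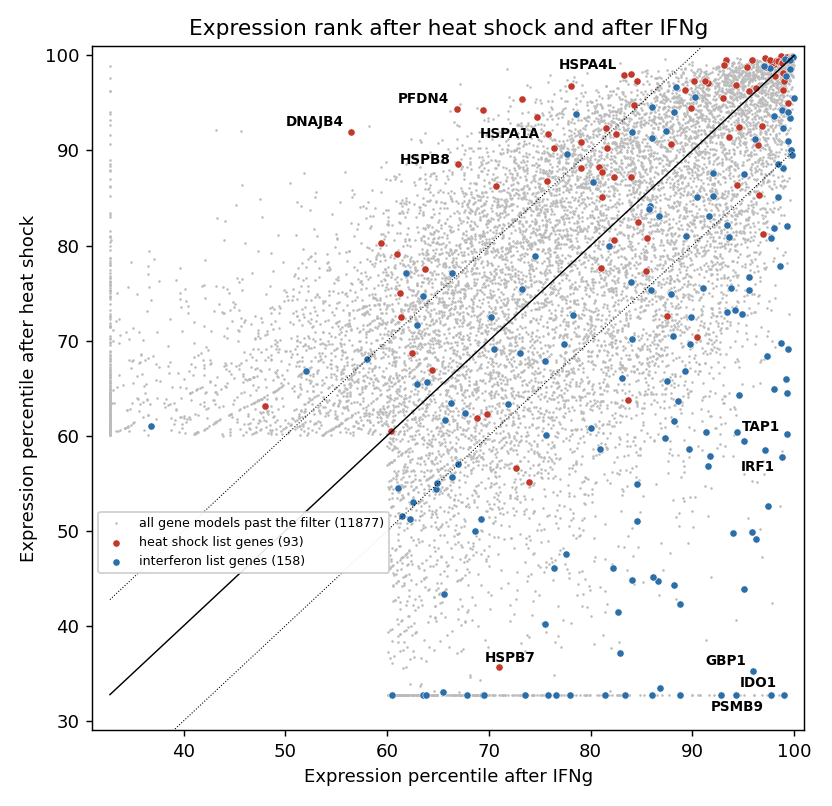
Expression percentile after heat shock (vertical axis) against that after IFNg (horizontal axis), with percentiles under 32.7 drawn at 32.7. Each grey point is 1 of 11877 gene models past the filter, red points are 93 genes of the heat shock lists, blue points are 158 genes of the interferon lists, and the dotted lines mark 10 points either way; 94 of the 158 interferon genes lie below the lower dotted line and 23 of the 93 chaperone genes above the upper one.

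Base composition moved with the difference. Across the 10638 models past the filter whose symbol has a transcript in GENCODE 29, Spearman's rho between the difference and the GC content of the longest transcript was -0.74, and with its length 0.17. The models were split by GC content into 5 groups of equal size. In the lowest group, 30.2% to 40.7% GC, the median difference was 11.69 points, 58.8% ranked higher after heat shock and 1.88% lower. In the highest group, 58.1% to 74.7% GC, the median was -13.40 points, 1.83% ranked higher and 64.0% lower. AT-rich transcripts thus ranked higher after heat shock and GC-rich transcripts lower, over the whole table. Each difference was therefore also given relative to the median of models of like GC content, called the GC-corrected difference; by it 1144 of 10500 genes (10.9%) ranked higher after heat shock and 1259 (12%) lower. Whether the GC trend belongs to the cells or to the libraries cannot be told apart with 1 library pair per treatment.

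**Figure D2:**
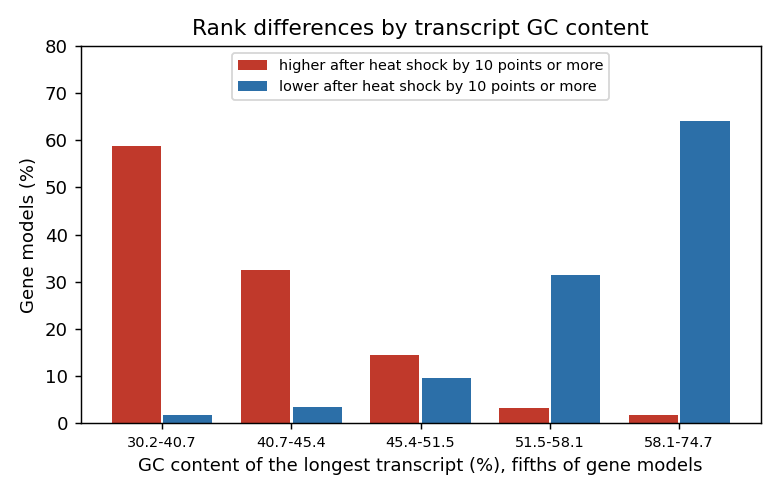
Share of gene models in each of 5 equal groups by transcript GC content (horizontal axis, %) that ranked at least 10 points higher (red) or lower (blue) after heat shock than after IFNg, in percent of the models of that group (vertical axis). The share ranked higher is 58.8% in the lowest group and 1.83% in the highest, and the share ranked lower is 1.88% in the lowest and 64.0% in the highest.

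Chaperone genes shifted towards heat shock at the very top of the table by log2 rank without GC correction, and hardly by percentile points. Over 5 lists of heat shock genes, 93 of 104 matched genes passed the filter. Of these 23 ranked higher after heat shock (24.7%, near the 23.1% of all genes), 8 ranked lower (8.6%, beside 22.5% of all genes) and 62 lay within 10 points, with a median of 1.91 points beside 0.91 over all genes. The 23 genes ranked higher had a median GC content of 39.9% and the 8 ranked lower one of 60.4%. After GC correction 14 of the 93 ranked higher (15.1%, beside 10.9% of all genes) and 4 lower (4.3%, beside 12%), and the median was 0.30 points; 8 of the 14 were higher in both forms of the difference. Because chaperone mRNAs crowd near the 100th percentile, ranks were also compared as log2 of the rank counted from the top, where 1 unit is a change of the rank number by a factor of 2. On that scale 41 chaperone genes were 1 unit or more higher after heat shock (44.1%) and 12 were lower (12.9%), with a median of 0.86. Over all genes 15.1% were higher and 16% lower. The shift was not particular to chaperones, since 22 of 48 cell cycle and replication genes were higher by this measure and 7 lower. Of 29 chaperone genes at the 95th percentile or above in both treatments, 17 (58.6%) were 1 log2 rank unit or more higher and 3 (10.3%) lower, while of all 704 genes that high in both treatments 191 (27.1%) were higher and 146 (20.7%) lower. Log2 rank differences were not corrected for GC content here or below, and the 704 genes were not matched for it. The part of the GC trend in them was not tested.

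The HSP70 family binds unfolded stretches of protein, and its members are paced by nucleotide exchange factors. Of 20 list members past the filter 6 ranked higher after heat shock (30.0%, beside 23.1% of all genes) and 1 lower (5.0%, beside 22.5%). Their median was 3.41 points, or -0.62 after GC correction. HSPA1A, the classic heat-inducible HSP70, had percentiles of 91.7 after heat shock and 75.8 after IFNg, a difference of 15.97 points and of 27.04 after GC correction. Its near-identical copy HSPA1B had 88.3 after heat shock and 80.8 after IFNg, and reads of the copies could have been split between them by the counting. HSPA4L, an HSP110-type exchange factor, had 98.0 after heat shock and 83.3 after IFNg. HSPH1, another HSP110 protein, had 99.5 after heat shock and 93.3 after IFNg, which is 3.83 log2 rank units higher. The constitutive members HSPA8, HSPA9 of mitochondria and HSPA5 of the endoplasmic reticulum were above the 98th percentile in both treatments, 1.79, 2.16 and 1.82 log2 rank units higher after heat shock. HSPA6, which is strictly heat-inducible in human cells, was at the floor after heat shock and at 20.3 after IFNg. The exchange factor HSPBP1 ranked lower, at 70.3 after heat shock and 90.4 after IFNg, and its GC-corrected difference was -3.58.

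J-domain proteins hand clients to HSP70. Of 30 members past the filter 9 ranked higher after heat shock (30.0%, beside 23.1% of all genes) and 4 lower (13.3%, beside 22.5%), with a median of 4.41 points, or -0.89 after GC correction. DNAJB4 had the largest difference of all 5 lists, with percentiles of 92.0 after heat shock and 56.4 after IFNg and a GC-corrected difference of 20.63. DNAJC3, an inhibitor of the kinase PERK in the endoplasmic reticulum, had 95.4 after heat shock and 73.2 after IFNg. DNAJA1, a main cytosolic member, was at 99.8 after heat shock and 99.1 after IFNg, 2.31 log2 rank units higher. DNAJB1, the J-protein most often used as a heat shock marker, was at 86.4 after heat shock and 94.4 after IFNg, a difference of -8.02 points that lies within the 10-point limit.

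HSP90 matures kinases and receptors with a set of co-chaperones. Of 19 members past the filter 3 ranked higher after heat shock (15.8%, beside 23.1% of all genes) and 1 lower (5.26%, beside 22.5%). Their median was 0.83 points, or 1.74 after GC correction. The 3 were CHORDC1 at 96.8 after heat shock and 78.1 after IFNg, SUGT1 at 90.3 after heat shock and 76.4 after IFNg, and PPID at 97.3 after heat shock and 84.5 after IFNg. The difference of CHORDC1 was 3.78 points after GC correction. HSP90AA1, the inducible cytosolic HSP90, was at 99.9 after heat shock and 98.7 after IFNg, 3.51 log2 rank units higher, and the constitutive HSP90AB1 was 1.28 units higher. FKBP8 was the member ranked lower, at 81.2 after heat shock and 96.9 after IFNg, and it stood 1.74 points higher once GC content was taken into account.

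The chaperonins are barrel-shaped folding machines, HSPD1 with its lid HSPE1 in mitochondria and the CCT ring in the cytosol, which prefoldin feeds. Of 16 genes 2 ranked higher after heat shock (12.5%, beside 23.1% of all genes) and none lower (beside 22.5%). Of the differences 14 were positive, with a median of 1.16 points, or -0.88 after GC correction. HSPD1 was at 99.8 after heat shock and 97.1 after IFNg, 3.61 log2 rank units higher, and HSPE1 at 99.0 after heat shock and 93.1 after IFNg, 2.74 units higher. The prefoldin subunits PFDN4, at 94.4 after heat shock and 66.8 after IFNg, and VBP1, at 94.2 after heat shock and 69.5 after IFNg, were the genes past 10 points, at 12.66 and 12.73 GC-corrected points. Only 8 of 15 small heat shock proteins and heat shock factors passed the filter; 3 ranked higher after heat shock and 2 lower, with a median of 2.10 points, or 8.23 after GC correction. HSPB7, a small heat shock protein known from heart and muscle, had 35.6 after heat shock and 71.0 after IFNg, the most negative difference of the 5 lists at -35.38 points, or -24.31 after GC correction. HSPB8 had 88.5 after heat shock and 66.9 after IFNg, with a GC-corrected difference of 25.14. HSPB1, the abundant small chaperone HSP27, had 95.02 after heat shock and 99.4 after IFNg. HSF1 itself had 85.3 after heat shock and 96.6 after IFNg, with a GC-corrected difference of 5.23, while HSF2 had 79.1 after heat shock and 60.9 after IFNg. CRYAB was at the floor after heat shock and at 52.97 after IFNg.

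Interferon genes ranked lower after heat shock in most branches of the response, and by nearly the same median after GC correction. Over 9 lists, 158 of 210 matched genes passed the filter; 94 ranked lower after heat shock (59.5%, beside 22.5% of all genes), 8 higher (5.06%, beside 23.1%) and 56 lay within 10 points, with a median of -15.91 points, or -15.80 after GC correction. Of the 94, 80 were also past 10 points after GC correction, 18 were at the floor after heat shock and 27 were at the 95th percentile or above after IFNg. Of the 158, 97 reached the 60th percentile in both treatments, and the others passed the filter through 1 treatment alone. A list's median therefore leans on genes kept because they ranked high in 1 treatment. Since 1 treatment is an interferon, the direction of these lists is what the labels lead one to look for. The lists were chosen with earlier results of these data known, so the direction is no independent check of the labels. How far each branch moved is given below.

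Many interferon-driven promoters carry a gamma-activated site (GAS), which dimers of STAT factors bind, or an interferon-stimulated response element (ISRE), which IRF and STAT complexes bind. Heat shock promoters carry heat shock elements (HSE), which HSF1 trimers bind. A search of the 250 bases upstream of RefSeq gene starts in GRCh38.p14, on both strands, used TTCNNNGAA for GAS, GAAANNGAAA for the core of ISRE and GAANNTTCNNGAA for HSE. A stretch can match more than 1 of them, since GAS and HSE are built of the same short units at other spacings. Of the 94 interferon genes ranked lower after heat shock, 67 had a promoter in the table. The ISRE core was found in 27 of them (40.3%), GAS in 16 (23.9%) and both in 5. Of all 27305 genes with a promoter, 3.71% had the ISRE core, 8.09% had GAS and 0.509% had both. Of the 7336 genes past the filter with a promoter, 3.34% had the ISRE core and 7.65% had GAS. The shares were not counted for interferon genes that did not rank lower, so they cannot be tied to rank. HSE was found in 6 of the 80 chaperone genes with a promoter (7.5%), and in 0.557% of all genes; of the 23 chaperone genes that ranked higher after heat shock 21 had a promoter in the table, and it was found in 1. A match is only a run of letters, and no binding was measured.

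The upstream sequences of 4 genes are shown to let the elements be read beside the ranks, 5′ to 3′ on the gene's strand, with the matched element in capitals; where a gene has several starts in the table, an entry with the match is shown. IRF1 (chr5:132490774-132491023, minus strand, GAS from 124 to 116 bases before the start) and GBP1 (chr1:89065209-89065458, minus strand, ISRE core from 127 to 118 bases before the start) ranked far lower after heat shock. B2M (chr15:44711267-44711516, plus strand, overlapping ISRE cores from 144 to 129 bases before the start) has the same element and had a percentile of 99.8 in both treatments. HSPD1 (chr2:197499841-197500090, minus strand, overlapping HSE matches from 245 to 228 bases before the start) is the chaperone gene with the best scored m6A peak below.
IRF1: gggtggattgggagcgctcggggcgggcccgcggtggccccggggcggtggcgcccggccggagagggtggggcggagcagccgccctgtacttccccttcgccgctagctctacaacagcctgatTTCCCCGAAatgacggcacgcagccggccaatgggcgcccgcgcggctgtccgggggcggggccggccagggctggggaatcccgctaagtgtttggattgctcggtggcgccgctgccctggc
GBP1: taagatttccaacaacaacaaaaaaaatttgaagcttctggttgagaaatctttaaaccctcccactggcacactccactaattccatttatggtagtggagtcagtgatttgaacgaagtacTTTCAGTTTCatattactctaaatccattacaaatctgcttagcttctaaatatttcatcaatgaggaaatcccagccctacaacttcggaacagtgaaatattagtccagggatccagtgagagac
B2M: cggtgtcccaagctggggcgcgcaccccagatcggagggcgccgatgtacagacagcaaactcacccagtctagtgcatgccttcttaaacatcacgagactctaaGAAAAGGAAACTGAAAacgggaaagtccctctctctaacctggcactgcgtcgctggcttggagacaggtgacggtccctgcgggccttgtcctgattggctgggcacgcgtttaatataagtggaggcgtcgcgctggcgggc
HSPD1: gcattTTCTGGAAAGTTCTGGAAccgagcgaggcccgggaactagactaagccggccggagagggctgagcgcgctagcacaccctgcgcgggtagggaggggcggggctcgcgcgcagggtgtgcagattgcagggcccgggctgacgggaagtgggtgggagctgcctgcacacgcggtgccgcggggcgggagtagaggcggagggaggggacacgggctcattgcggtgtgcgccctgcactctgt

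At the upper end of the pathway the calls lay near the shares of all genes. Of 24 genes for the IFNg receptor, JAK kinases, STAT factors and their inhibitors, 7 ranked lower after heat shock (29.2%, beside 22.5% of all genes), 4 higher (16.7%, beside 23.1%) and 13 lay within 10 points, with a median of -1.79 points; after GC correction 2 ranked lower and none higher. The receptor chains IFNGR1 and IFNGR2 were at 71.6 and 75.5 after heat shock and at 62.9 and 73.3 after IFNg. STAT2 was at 73.2 after heat shock and 94.2 after IFNg. SOCS3, a feedback inhibitor of the kinases, was at 72.8 after heat shock and 94.9 after IFNg, while its relative SOCS4 was at 77.1 after heat shock and 61.8 after IFNg and differed by 0.32 points after GC correction. Among 9 interferon regulatory factors and relatives 5 ranked lower after heat shock (55.6%, beside 22.5% of all genes) and none higher (beside 23.1%). Their median was -20.14 points, or -9.07 after GC correction. IRF1, the first wave factor whose promoter is shown above, was at 57.7 after heat shock and 98.8 after IFNg, and IRF7 was at the floor after heat shock and at 88.7 after IFNg.

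The effector branches held the largest differences. Guanylate-binding proteins are large GTPases that attack vacuoles of pathogens. Of 6 genes of this list 5 ranked lower after heat shock (83.3%, beside 22.5% of all genes), with a median of -46.09 points. GBP1 was at 35.3 after heat shock and 96.0 after IFNg, GBP2 at 43.9 after heat shock and 95.03 after IFNg, and GBP5 at 37.2 after heat shock and 82.8 after IFNg. These genes are alike in sequence and could share reads. IDO1, which breaks down tryptophan, had the most negative difference of the genes ranked by size below, -66.23 points, at the floor after heat shock and at 99.0 after IFNg. PSMB9, a catalytic subunit of the immunoproteasome, was at the floor after heat shock and at 97.7 after IFNg, and its partner PSMB8 was at 64.5 after heat shock and 99.3 after IFNg. The assembly factor POMP had 93.9 after heat shock and 78.6 after IFNg, with 0.36 points left after GC correction.

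In antigen presentation 10 of 17 genes of MHC class I (58.8%) and 11 of 14 of MHC class II (78.6%) ranked lower after heat shock, beside 22.5% of all genes. None ranked higher, beside 23.1% of all genes, and the medians were -13.28 and -32.13 points. Of the 14 class II genes 3 reached the 60th percentile in both treatments. TAP1, which pumps peptides into the endoplasmic reticulum, was at 60.1 after heat shock and 99.3 after IFNg, and NLRC5, the activator of class I genes, at 57.8 after heat shock and 91.7 after IFNg. B2M, CALR, CANX and PDIA3, which every class I complex needs, differed by 1.03 points or less. CIITA, the master activator of class II genes, was at 33.5 after heat shock and 86.8 after IFNg, HLA-DRA at 44.2 after heat shock and 88.2 after IFNg, and the invariant chain CD74 at 58.5 after heat shock and 97.2 after IFNg.

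Of 49 antiviral effectors 31 ranked lower after heat shock (63.3%, beside 22.5% of all genes) and 1 higher (2.04%, beside 23.1%). Their median was -16.20 points. IFI27, TRIM22 and OAS2 were at the floor after heat shock and at 86.1, 77.9 and 69.5 after IFNg. UBE2L6, which loads ISG15, was at 52.6 after heat shock and 97.4 after IFNg, and ISG15 itself at 82.0 after heat shock and 99.3 after IFNg. Of the IFIT genes, sensors of foreign RNA ends, IFIT2 was at 72.5 after heat shock and 89.9 after IFNg. IFIT1 went the same way within 10 points, at 85.1 after heat shock and 90.4 after IFNg. EIF2AK2, the kinase PKR, leaned the other way at 94.1 after heat shock and 88.2 after IFNg, with a GC-corrected difference of -5.17. Of 15 chemokines and immune regulators 9 ranked lower and 1 higher; CXCL10 and CCL2 were at the floor after heat shock and at 73.6 and 76.6 after IFNg. Of 18 apolipoprotein L and complement genes 12 ranked lower (66.7%) and 1 higher (5.56%). Those ranked lower included APOL1 and the C1 inhibitor SERPING1, both at the floor after heat shock and at 92.8 and 94.3 after IFNg. The exception MASP2 was at 61.0 after heat shock and 36.8 after IFNg, and is the interferon list gene that was past 10 points higher in both forms of the difference.

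**Figure D3:**
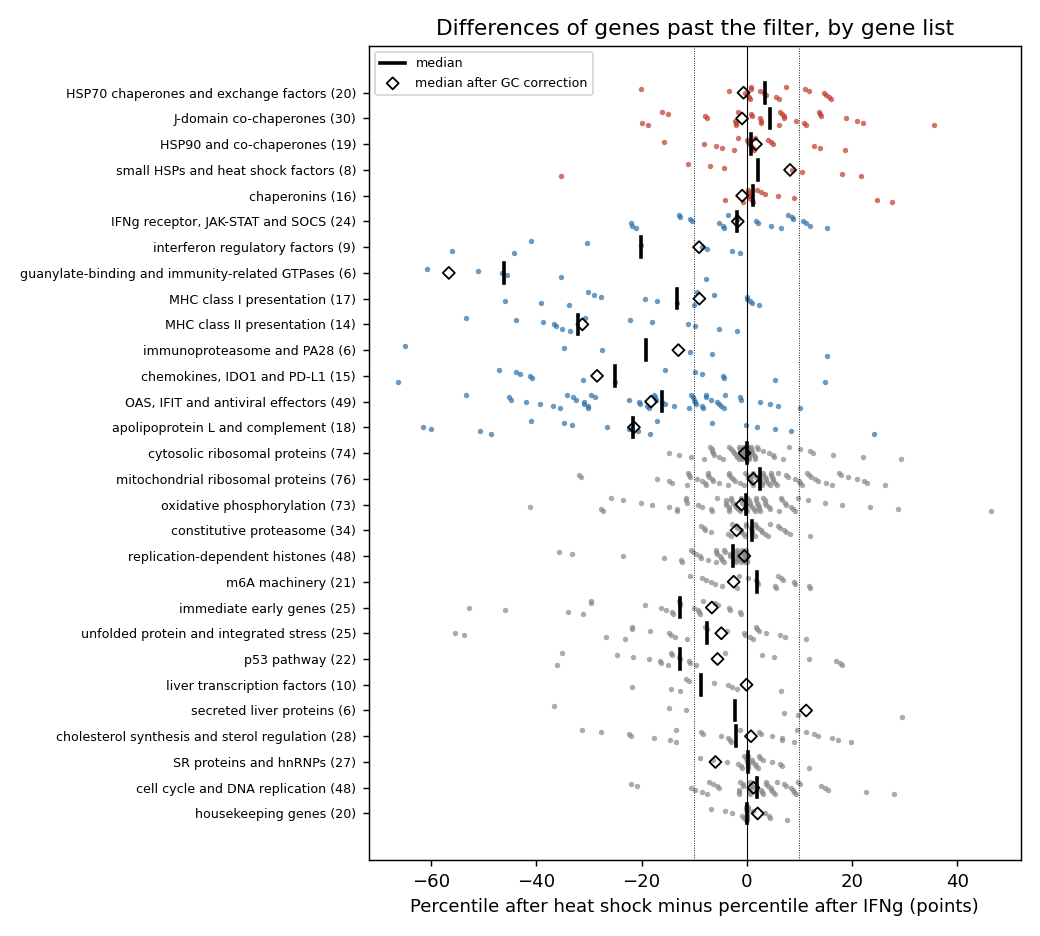
Difference in expression percentile, heat shock minus IFNg (horizontal axis, points), for the genes past the filter in 29 lists, with the number of genes in brackets. Each point is a gene, the bar is the list's median, the open diamond is the median after GC correction, red marks heat shock lists and blue interferon lists; the interferon lists other than the receptor and JAK-STAT list have medians between -13.28 and -46.09, while the medians of the chaperone lists lie between 0.83 and 4.41 and those of the HSP70, J-domain and chaperonin lists change sign after GC correction.

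Among stress and early response genes of neither programme, lower ranks after heat shock outnumbered higher ones; over all genes 22.5% ranked lower and 23.1% higher. All 25 immediate early genes past the filter had a negative difference, and 15 of them ranked lower (60%), with a median of -12.77 points, or -6.63 after GC correction, by which 12 ranked lower. FOS was at 38.5 after heat shock and 91.3 after IFNg, EGR1 at 52.6 after heat shock and 98.6 after IFNg, and KLF4 at 60.1 after heat shock and 94.0 after IFNg. Of 25 genes of the unfolded protein and integrated stress responses 11 ranked lower (44.0%), 1 higher and 13 lay within 10 points, with a median of -7.49 points, or -4.83 after GC correction, by which 9 ranked lower. They were led by CHAC1, at 42.4 after heat shock and 97.9 after IFNg, and SESN2, at 40.6 after heat shock and 94.3 after IFNg. Among 22 genes of the p53 pathway 14 ranked lower (63.6%) and 4 higher, with a median of -12.75 points, or -5.56 after GC correction; GDF15 was at 57.9 after heat shock and 93.0 after IFNg. Of 10 liver transcription factors 5 ranked lower, with a median of -8.65 points that became -0.05 after GC correction.

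Genes of basic upkeep had medians near 0 in percentile points, which hardly move near the top, and in most lists members went both ways. None of 20 housekeeping genes was past 10 points, and their median was -0.01. The medians were -0.02 points for 74 cytosolic ribosomal proteins, -0.14 for 73 genes of oxidative phosphorylation, 0.95 for 34 subunits of the constitutive proteasome, 2.45 for 76 mitochondrial ribosomal proteins and 0.25 for 27 splicing factors of the SR and hnRNP families. Past 10 points, 16 mitochondrial ribosomal proteins ranked higher after heat shock (21.1%, beside 23.1% of all genes) and 9 lower (11.8%, beside 22.5%). Of the oxidative phosphorylation genes 6 ranked higher (8.22%) and 13 lower (17.8%). The median of the splicing factors became -5.96 after GC correction, by which 7 of the 27 ranked lower and 1 higher. NDUFA5, a subunit of respiratory complex I, was at 92.1 after heat shock and 45.7 after IFNg, and COX8A, of complex IV, at 55.1 after heat shock and 96.4 after IFNg. Of 48 replication-dependent histone genes, whose copies are nearly alike, 8 ranked lower and none higher, and 47 differences were negative; their median of -2.70 points became -0.45 after GC correction. On the log2 rank scale 37 of the 48 were 1 unit or more lower after heat shock and none higher, with a median of -1.86. On that scale 20 of the 74 cytosolic ribosomal proteins were higher and 24 lower. Over all genes 15.1% were higher and 16% lower. Of 48 cell cycle and replication genes 6 ranked higher (12.5%) and 3 lower (6.25%), with a median of 2.04 points. By log2 rank 22 of these 48 were 1 unit or more higher after heat shock and 7 lower.

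Most genes that write, erase and read m6A lay within 10 points. Of 21 genes past the filter 2 ranked higher after heat shock (9.52%, beside 23.1% of all genes), 1 lower (4.76%, beside 22.5%) and 18 within. Their median was 2.00 points, or -2.48 after GC correction. METTL3, the catalytic writer, was at 82.6 after heat shock and 88.7 after IFNg, and its partner WTAP at 93.0 after heat shock and 87.5 after IFNg. KIAA1429, a scaffold of the writer complex also called VIRMA, was at 91.6 after heat shock and 79.6 after IFNg. The eraser ALKBH5 was at 85.7 after heat shock and 96.5 after IFNg, and the eraser FTO at 85.3 after heat shock and 76.3 after IFNg. Of the readers, YTHDF2 was at 90.8 after heat shock and 83.8 after IFNg, YTHDF1 at 89.9 after heat shock and 91.3 after IFNg, and YTHDC2 at 84.2 after heat shock and 72.1 after IFNg. After GC correction no member ranked higher by 10 points, and METTL3 and CBLL1 were lower, at -12.46 and -17.53 points.

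By size alone, the 12 genes with the largest differences towards IFNg were IDO1, PSMB9, TSPO, SERPING1, GBP1, APOL1, BCL3, RBCK1, IRF7, CHAC1, SESN2 and CIITA, with differences between -66.23 and -53.35. TSPO, a cholesterol-binding protein of the outer mitochondrial membrane, was at the floor after heat shock and at 96.8 after IFNg; BCL3, a regulator of NF-kB, was at the floor after heat shock and at 91.7 after IFNg. The 12 genes with the largest differences towards heat shock were a mixed set with no chaperone among them: CDR1, CO9, CKS1B, MPZL3, NDUFA5, C11orf74, SYCP3, PDK3, LPCAT2, C13orf37, RGPD5 and UBE2CBP, with differences between 59.95 and 41.06. CDR1 was at 92.7 after heat shock and at the floor after IFNg; the kit named in the labels did not mark strand, so its reads cannot be told apart from those of the circular RNA on the opposite strand. CKS1B, a subunit of cyclin-dependent kinases, was at 81.0 after heat shock and at the floor after IFNg. RGPD5 belongs to a family of near-identical copies and is uncertain. None of these 12 had an m6A peak in either treatment.

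The table lists 9803 m6A peaks in 5663 gene models after heat shock and 5280 peaks in 3556 gene models after IFNg. Among genes past the filter, 46.2% had a peak after heat shock and 29.6% after IFNg. The median of the authors' score, whose formula was not given in the sources used here, was 3.72 after heat shock and 3.01 after IFNg, with a lowest listed score of 2 in both. In every bin of 10 percentiles from the 40th upwards, more models had a peak after heat shock than after IFNg. In the bin from the 60th to the 70th percentile the shares were 36.7% (exact binomial 95% interval 34.9% to 38.6%) after heat shock and 17.5% (16.1% to 19.0%) after IFNg. In the top bin they were 56.5% (54.6% to 58.4%) after heat shock and 38.2% (36.4% to 40.1%) after IFNg. These intervals cover counting error over gene models only, and the part of sequencing depth in the shares was not tested.

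**Figure D4:**
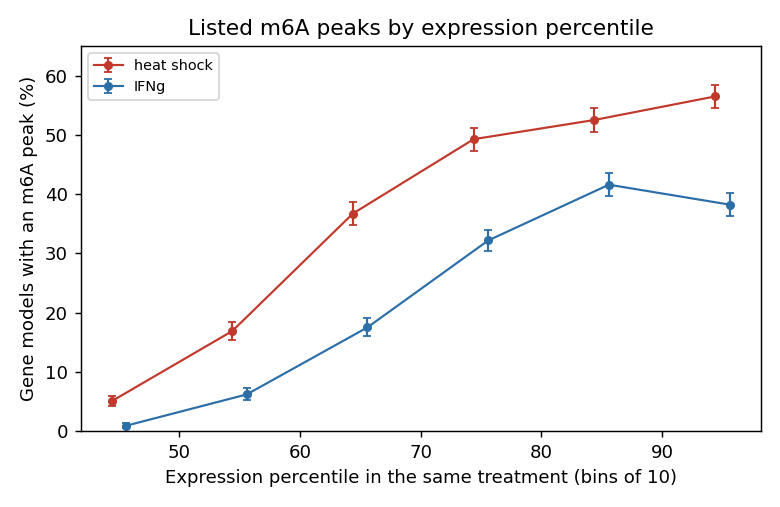
Share of gene models with at least 1 listed m6A peak (vertical axis, %) by the model's expression percentile in the same treatment (horizontal axis, bins of 10), after heat shock (red) and after IFNg (blue), with exact binomial 95% intervals. The share after heat shock lies above that after IFNg in each of the bins, at 36.7% and 17.5% from the 60th to the 70th percentile and at 56.5% and 38.2% in the top bin.

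Peaks of the same gene model within 100 nt of each other were joined into sites. Of 11541 sites, 3465 were listed in both treatments, 6286 after heat shock alone and 1790 after IFNg alone. The shared sites were 35.5% (34.6% to 36.5%) of the heat shock sites and 65.9% (64.6% to 67.2%) of the IFNg sites. Where both treatments listed a site the positions were close, with a median distance of 15 nt and 90.1% within 50 nt, and 97.3% carried the same segment label. Restricting to models at the 75th percentile or above in both treatments left the overlap much the same, at 36.8% of the heat shock sites and 61.9% of the IFNg sites. With only as many of the best scored heat shock peaks as there are IFNg peaks, 2401 sites were shared, 45.5% of the heat shock sites and 45.7% of the IFNg sites. The IFNg sites of models at the 90th percentile or above after heat shock were listed there in 51.0% of cases, against 76.7% for models between the 60th and the 70th.

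The treatments listed m6A at different places along the transcript. Peaks at the transcript start made up 8.47% (7.92% to 9.05%) of 9585 peaks in coding models after heat shock and 1.2% (0.921% to 1.54%) of 5165 after IFNg. Coding sequence held 40.8% after heat shock and 47.8% after IFNg, and the 5′ UTR held 2.77% after heat shock and 1.57% after IFNg. The stop codon region held 27.4% after heat shock and 28.96% after IFNg, and the 3′ UTR 20.6% after heat shock and 20.4% after IFNg. These shares were nearly equal over all coding models, but not in each setting. The stop codon region held 24.98% after heat shock and 28.9% after IFNg in models with a peak in both treatments. Among peaks scored 4 or more it held 30.8% after heat shock and 34.9% after IFNg. Coding sequence held 45.8% after heat shock and 47.2% after IFNg in models with a peak in both. In models at the 75th percentile or above in both treatments it held 37.7% after heat shock and 48.0% after IFNg. The start share after heat shock was 8.43% among the best scored peaks, 8.62% among peaks scored 4 or more, 12.97% in models at the 75th percentile or above in both treatments and 5.13% in models with a peak in both. After IFNg it was 0.40% among peaks scored 4 or more, 1.38% in the models at the 75th percentile or above and 1.06% in models with a peak in both. Of the 814 start sites of heat shock, 5.65% were listed after IFNg as well. A start peak lay at a median of 104 nt from the transcript's 5′ end after heat shock and 116 nt after IFNg. Antibodies against m6A also bind a second methylated adenosine that some mRNAs carry next to the cap, and with fragments of about 100 nt the table does not separate the marks.

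**Figure D5:**
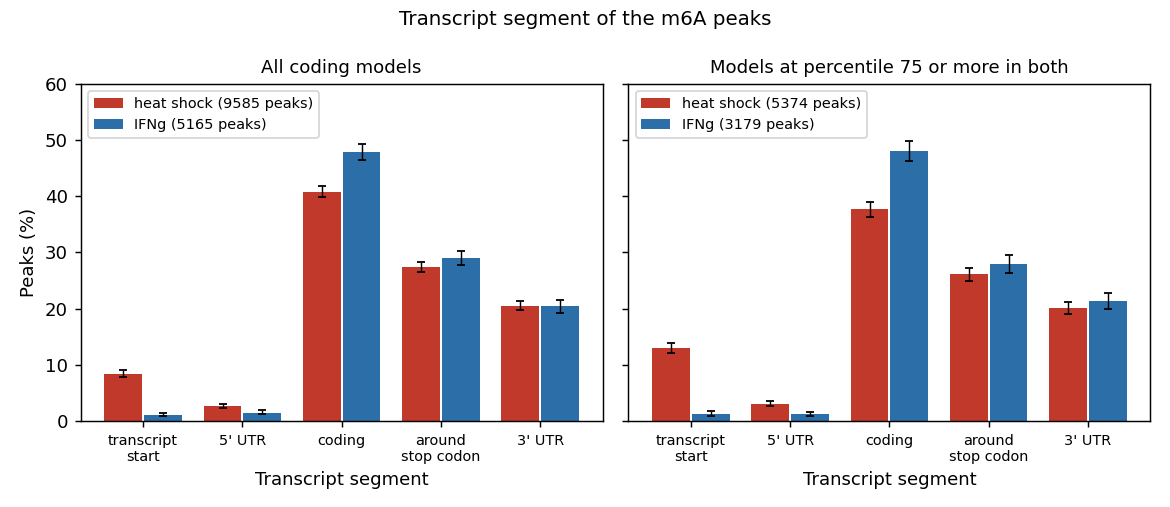
Share of m6A peaks in each transcript segment (vertical axis, % of peaks in coding models) after heat shock (red) and after IFNg (blue), for all coding models and for models at the 75th percentile or above in both treatments, with exact binomial 95% intervals. Transcript start peaks are 8.47% after heat shock and 1.2% after IFNg, and 12.97% and 1.38% in the high models, while the shares in the 3′ UTR are nearly equal.

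Start peaks were most frequent in highly ranked genes. Of 1578 models at the 90th percentile or above in both treatments, 26.2% had one after heat shock and 1.58% after IFNg; over all genes past the filter the shares were 6.88% after heat shock and 0.53% after IFNg. Of the 1578, 1530 had a GC value. In 3 groups of 510 of these by GC content, from the lowest to the highest, 28.4%, 28.4% and 23.7% had a start peak after heat shock, and 0.784%, 2.16% and 1.76% (4, 11 and 9 models) after IFNg. The share after heat shock was above that after IFNg in each of the groups.

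Many chaperone mRNAs had such a peak after heat shock. A start peak was listed in 27 of the 93 chaperone genes after heat shock, beside 6.88% of all genes, and in none after IFNg, at positions from 69 to 188 nt and with scores from 2.35 to 8.29. They include HSP70 genes (HSPA1A, HSPA1B, HSPA4L, HSPA5, HYOU1 and the factor BAG1), J-domain genes (DNAJA1, DNAJB1, DNAJB4, DNAJC8), HSP90 and its partners (HSP90B1, AHSA1, FKBP4, PTGES3, STIP1, SUGT1), HSPB1 and HSBP1, and the chaperonins HSPD1, HSPE1, CCT2, CCT4, CCT6A, CCT7, TCP1, PFDN2 and PFDN6. The start peak of HSPD1 at 110 nt had a score of 8.29, the highest of any peak after heat shock; HSPD1 had no peak after IFNg although it stood at the 97.1st percentile there. HSP90B1, the HSP90 of the endoplasmic reticulum, had its start peak at 75 nt with a score of 7.52, and HSPA4L at 104 nt with 6.90. Chaperone genes are also highly ranked: of 40 chaperone genes at the 90th percentile or above in both treatments 20 had a start peak after heat shock, beside 414 of all 1564 such genes (26.5%), and 0 after IFNg beside 25 of 1564. They were 9 of 13 such chaperonins, but 3 of 9 HSP70 and 2 of 7 J-domain genes. The trait was not particular to chaperones. Among genes that high, 14 of 27 proteasome subunits, 11 of 20 splicing factors and 13 of 22 cell cycle genes had one after heat shock. Of cytosolic ribosomal proteins 7 of 59 did. DNAJB1, whose difference was -8.02 points, had its start peak at 77 nt with a score of 2.45.

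Of 102 sites in the 5 lists, 15 were listed in both treatments (14.7%, beside 30.0% of all 11541 sites), 67 after heat shock alone and 20 after IFNg alone. Without the start sites 75 were left, of which the same 15 were listed in both (20%, beside 31.9% of all 10705 sites away from the start), 40 after heat shock alone (53.3%, beside 51.5%) and 20 after IFNg alone (26.7%, beside 16.5%). Other lists also shared few sites, start sites included: 6 of 66 in cell cycle and replication genes and 0 of 33 in oxidative phosphorylation. Immediate early genes shared 17 of 38. HSPA1A had a stop codon site in both, at 2019 nt with a score of 6.93 after heat shock and at 2010 nt with 3.65 after IFNg. HSPA13 had a coding site in both at 1080 nt, score 6.87, after heat shock and at 1077 nt, score 6.42, after IFNg. BAG5 had 1 in both, at 601 nt with 6.49 after heat shock and at 596 nt with 2.36 after IFNg. HSPH1 shows the opposite case: it had a 5′ UTR peak at 377 nt after heat shock and coding peaks at 705 and 2273 nt after IFNg, none of them shared.

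In interferon genes IFNg-alone sites were the most numerous class. Of 124 sites in the 9 lists, 37 were listed in both treatments (29.8%, beside 30.0% of all sites), 28 after heat shock alone (22.6%, beside 54.5%) and 59 after IFNg alone (47.6%, beside 15.5%). In the 38 genes with a peak among those ranked lower after heat shock there were 69 sites, 23 listed in both treatments, 5 after heat shock alone and 41 after IFNg alone. These genes were picked by their low rank after heat shock, and peaks were listed less often at low percentiles, whose part was not tested. Counted by gene model, of all 2684 models ranked lower after heat shock 523 (19.5%) had peaks after heat shock alone and 78 (2.91%) after IFNg alone. A model with peaks in both treatments can still hold sites listed in 1 alone, so these counts cannot be set against the site counts. IDO1, GBP1, GBP2, GBP5, IRF1, ICAM1, CIITA and APOL1 had peaks after IFNg and none after heat shock, where their percentiles lay between the floor of 32.7 and the 57.7 of IRF1. CIITA had peaks at 1331, 2544 and 4379 nt with scores of 3.23, 2.71 and 4.10. Other interferon genes had the same site in both treatments: TAP1 had a 3′ UTR site at 2813 nt with a score of 4.01 after heat shock and at 2789 nt with 3.38 after IFNg, NLRC5 a coding site at 1465 nt with 4.02 after heat shock and at 1467 nt with 3.44 after IFNg, and OASL a stop codon site at 1504 nt with 4.24 after heat shock and at 1501 nt with 5.15 after IFNg. PARP14, an ADP-ribosyltransferase, had peaks at 2499 and 4451 nt after heat shock, and 6 after IFNg, among them peaks at 2466 and 4446 nt.

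Peaks were listed least often in genes ranked higher after heat shock, in both treatments. Of 2755 models ranked higher after heat shock 29.9% had a peak after heat shock and 18.7% after IFNg. Of 2684 ranked lower the shares were 39.98% after heat shock and 23.4% after IFNg, and of 6438 within 10 points 54.9% after heat shock and 36.2% after IFNg. Peaks were thus most often listed in genes whose rank did not move, which also had the highest median percentiles, 83.0 after heat shock and 82.2 after IFNg.

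Scores could be compared at the 3465 shared sites only as ranks within each treatment, since the scales differed. A site was called when its score percentile differed by 25 points or more: 807 sites (23.3%) ranked higher after heat shock and 800 (23.1%) lower. Spearman's rho between the scores was 0.31. By segment, the median difference in score rank was -6.44 points for 731 sites in the 3′ UTR, with 142 called higher and 193 lower, and 1.21 for 1458 coding sites, with 364 higher and 313 lower. The score rank difference also moved with GC content, at a rho of -0.30 over 3319 sites, and with the expression difference, at 0.23; their part in single sites was not tested.

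The largest gains in score rank after heat shock were at sites of ARMCX5, UBE3A, DST, SLC39A6, HELZ, C1orf55, NIPBL and RBM34. The site of UBE3A, a ubiquitin ligase, had scores of 6.66 after heat shock and 2.05 after IFNg; that of NIPBL, which loads cohesin, had 7.10 after heat shock and 2.25 after IFNg. The largest losses were at sites of MAML1, IRS2, GCC1, FRAT2, ASXL1, UHRF1 and ZNF41. IRS2, an adaptor of the insulin receptor, had 2 of these, with scores of 2.55 and 2.45 after heat shock and 5.37 and 5.09 after IFNg. The site of UHRF1, a guide of DNA methylation, was at the same position of 3266 nt in both and had scores of 2.73 after heat shock and 5.54 after IFNg.

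Among models at the 75th percentile or above in both treatments, the best scored sites listed after heat shock alone were start peaks of HSPD1, SMC4, ARL6IP5 and HSP90B1, a stop codon peak of BAT2D1 and a coding peak of the chromatin remodeller ATRX. SMC4, a condensin subunit, had its peak at 88 nt with a score of 8.10. The best scored sites listed after IFNg alone were in MBNL2, TM9SF1, SLC7A1, SOCS6, ITPRIPL2 and EXT1, with scores from 6.51 to 5.83, and none was at the transcript start. SOCS6, an inhibitor of cytokine signalling, had its coding peak at 1687 nt with a score of 5.94 after IFNg, and a coding peak at 1322 nt with a score of 6.47 after heat shock.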

How the data were processed

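RNA was measured by m6A sequencing, 1 IP and 1 input library for each treatment, from poly(A)-selected RNA fragmented to about 100 nt, per the labels' protocols. The deposited values were the authors' expression quantile, peak positions, exons and segments, and a peak score; for the aligner, peak caller, genome build and the libraries behind the quantile the sources used here give nothing. Samples were mapped by treatment, and 14 columns of other treatments were not used. Percentiles under 32.7 were raised to that value, models at the 60th percentile or more in either treatment were kept, and 10 points were called. GC content was that of a symbol's longest transcript in GENCODE 29, available for 89.6% of these models, and the median of each of 40 GC bins was subtracted. Intervals are exact Clopper-Pearson at 95%. Named genes were the 12 largest differences each way, members of the heat shock, interferon and m6A machinery lists, up to 4 genes each way past 10 points in other lists, the 8 largest score rank changes each way and the 6 best scored unshared sites per treatment; genes within 10 points named in other lists, and the choice of 4 promoters, came after their values were seen. The members and lists were chosen with earlier results of these data known. Some members are not reported here by name. All steps ran in Python 3.11.15 with SciPy 1.17.1, NumPy 2.4.6 and pandas 2.3.3 and were tested on simulated data.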

Additional observations from a re-analysis of the deposited data

How the results depend on the processing

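No paired analysis was possible because each treatment has 1 value per gene model and nothing to pair. The 2755 models ranked higher and 2684 ranked lower after heat shock became 4490 and 4429 with no filter, 494 and 637 at the 90th percentile or more in either treatment, 806 and 1045 at 20 points, and 1178 and 1282 after GC correction; 4372 ranked higher at 5 points and 1790 by log2 rank. Leaving the floors as deposited changed neither count, and ranking again only models above both floors gave 2493 and 2340. The share of higher calls among all calls moved by at most 7.1 points. With no filter 7 lists had a median past 10 points. The medians then weakened to -7.58 points for interferon regulatory factors and -4.45 for chemokines and immune regulators. For apolipoprotein L and complement genes the median weakened to -6.27. In all, 10 named genes changed sign after GC correction, to 3.01 for CEBPB, 5.02 for F12, 1.74 for FKBP8, 5.23 for HSF1, 1.46 for PIAS4 and 0.77 for RXRA, and to -0.73 for CLK4, -0.86 for RRM2B, -1.91 for SOCS5 and -2.86 for YTHDC2; of 158 named genes 104 stayed past 10 points in the same direction. Shared sites numbered 655 and sites after 1 treatment alone 3464 for heat shock and 354 for IFNg at a score of 4 or more. In models at the 75th percentile or more in both treatments 1985 were shared and 3414 listed after heat shock alone. With equal numbers of peaks 2879 were listed after heat shock alone and 2854 after IFNg alone. The start share after heat shock was 5.13% in models with a peak in both and 12.97% in models at the 75th percentile or more in both, and after IFNg 0.40% at a score of 4 or more. At 40 points 439 score ranks were higher and 440 lower. With 1 library pair per treatment no result has a replicate check, and depth is unknown.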
